A study of Mus musculus with 12 samples.

Results

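Chromatin remodelers and histone methylation enzymes were examined in ribosome profiling and RNA sequencing data from mouse left ventricle. The set held 72 of the 21669 names in each count table. It was taken by gene symbol: the families Kmt2, Kmt5, Kdm1 to Kdm7, numbered Setd, numbered Chd, Smarca to Smarce and Arid1 to Arid5, together with Bptf, Crebbp, Ep300, Dot1l, Ezh1 and Ezh2. All 72 matched protein-coding transcripts of GENCODE M21 (GRCm38), with 1 transcript for each of 72 symbols.

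The tissue came from adult hearts of wild-type (WT) mice and of Rpl3l-/- mice (KO), which lack a muscle paralog of the ribosomal protein Rpl3. Ribosome-protected fragments (RPF, or footprints) were sequenced after RNase I digestion of the lysate, and undigested lysate gave the polyadenylated RNA that was sequenced for the mRNA level. There were 3 libraries in each of 4 groups (RNA WT, RNA KO, RPF WT and RPF KO), 12 in all, described as biological triplicates. Strain, sex, the way the Rpl3l-/- allele was made and whether an RNA and an RPF library of the same number came from the same heart are not given in the sources used here. The comparison asks whether the mRNA, the footprints or the footprints per mRNA of each gene differ between genotypes.

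Chromatin remodelers are ATP-driven machines that slide, evict or exchange nucleosomes, and they fall into the SWI/SNF (BAF and PBAF), CHD, ISWI and INO80 families. Histone lysine methyltransferases place methyl groups on lysines of histones and demethylases remove them, and the mark depends on the lysine. H3K4 methylation marks promoters and enhancers, H3K36 and H3K79 methylation mark transcribed genes, and H3K27 trimethylation marks genes silenced by Polycomb. In the heart, BAF subunits such as Smarcd3 (BAF60c) and Smarca4 (BRG1) are known for their part in cardiac development, and Kmt2d and Chd7 are linked to congenital heart disease.

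Library totals ran from 3827862 to 7474602 counts in RPF and from 6635242 to 8459004 in RNA. Mitochondrially encoded transcripts took between 49.8% and 58.2% of RNA counts. The targeted gene, Rpl3l, had 2987, 2726 and 3329 RNA counts in WT against 276, 310 and 442 in KO, and 937, 985 and 1108 footprint counts in WT against 65, 30 and 61 in KO, so all labels held. Cardiomyocyte markers (8 of 8 detected) summed to between 43440 and 58230 CPM (counts scaled to a common library size) in every RNA library, as heart tissue requires. They do not tell ventricle from atrium. Atrial markers (Nppa, Myl4, Myl7 and Sln) summed to 2278, 2615 and 1681 CPM in RNA WT and 2053, 4136 and 3526 CPM in RNA KO. Whether the samples held atrial tissue was not tested. On the first component of the levels of all genes tested in RNA (47.9% of the variance), WT 1, WT 2 and KO 2 scored from 18.4 to 24.0, and WT 3, KO 1 and KO 3 scored from -24.0 to -18.2, a split that crosses genotype. In RPF, WT 1 alone stood apart, at 60.8 against -14.7 to -7.91 for the other 5 libraries.

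The mRNA of the set differed between libraries far more than between genotypes, while its footprints varied little. Library sizes for CPM were scaled by trimmed mean of M values (TMM). The summed RNA level of the 72 genes was 2497, 2279 and 1277 CPM in WT 1, 2 and 3, and 1418, 2521 and 1369 CPM in KO 1, 2 and 3. Thus WT 1, WT 2 and KO 2 were high, WT 3, KO 1 and KO 3 were low, and the genotypes overlapped. On this scale the summed footprint level was 2679, 2645 and 2492 CPM in WT and 2658, 2697 and 2724 CPM in KO, again with overlap. RNA means were 2017 ± 651 CPM for WT and 1769 ± 652 CPM for KO, and footprint means 2605 ± 99 CPM for WT and 2693 ± 33 CPM for KO (SD, n = 3 each). As a share of nuclear counts, the set took between 0.312% and 0.534% of RNA. In footprints that share was 0.272%, 0.268% and 0.264% in WT and 0.278%, 0.2745% and 0.2835% in KO, so on this scale every KO library lay above every WT library, unlike in TMM-scaled CPM. The KO mean was 0.877 times the WT mean in RNA and 1.03 times in RPF, and it stayed within 0.872 to 0.939 and 1.03 to 1.04 under the other scalings.

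**Figure D1:**
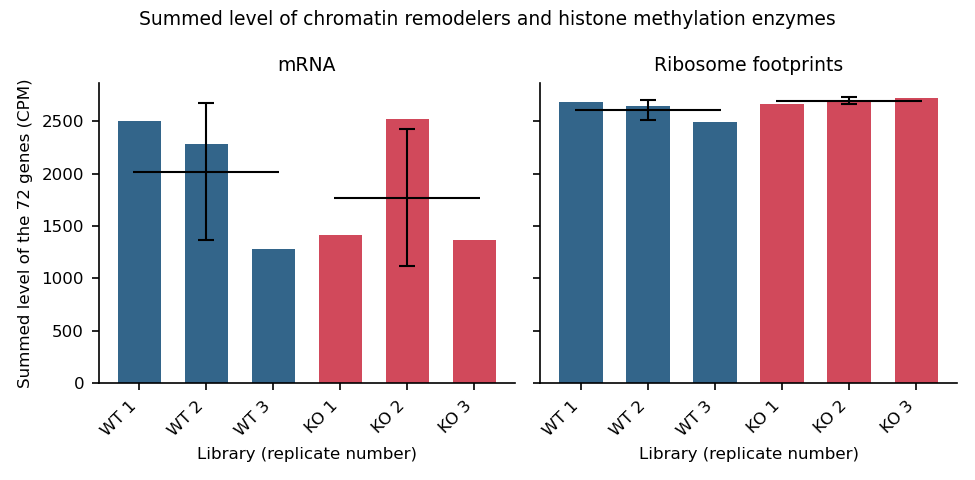
Summed level of the 72 chromatin genes in each library (bars, CPM) for mRNA (left) and ribosome footprints (right), with WT in blue and KO in red; the horizontal line and error bar give the mean and SD of the 3 libraries of a genotype. In mRNA, WT 3, KO 1 and KO 3 lie between 1277 and 1418 CPM and the other libraries between 2279 and 2521 CPM, while all 6 footprint libraries lie between 2492 and 2724 CPM.

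Comparing genotypes within each side of that split, KO 2 lay at 2521 CPM beside WT 1 and WT 2 at 2497 and 2279, and KO 1 and KO 3 lay at 1418 and 1369 beside WT 3 at 1277. With a factor for the split in the fit, the median log2 fold change of the set in RNA, KO against WT, went from -0.12 to 0.09. The split was defined from these data and is no group of the study, and its origin was not tested. Its low side held WT 3 beside KO 1 and KO 3, so a factor for it moves the fold changes of genes that follow it. The value with the factor is therefore a description and no test of genotype. Summed adipocyte markers were at 90.8 CPM in RNA WT 2 and 83.1 in RNA KO 2 against 9.22 to 15.7 in the other RNA libraries, including WT 1, so they did not follow the split. Cardiomyocyte markers did follow it, at 58230, 49980 and 44890 CPM in RNA WT 1, 2 and 3 and 43840, 48650 and 43440 CPM in RNA KO 1, 2 and 3, and their part in the result was not tested. Erythroid markers summed to 1928, 3456 and 4317 CPM in RNA WT and 5270, 3944 and 1263 CPM in RNA KO, and did not follow it. In bulk tissue, fewer cells of a type and less RNA per cell cannot be told apart.

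By role, WT 3, KO 1 and KO 3 were the lowest RNA libraries in the summed level of every group except the SNF2 ATPases Smarcad1 and Smarcal1. The 12 BAF and PBAF subunits summed to 630.3, 558 and 358 CPM of RNA in WT and 365, 606 and 369 CPM in KO, and the 10 CHD remodelers to 482.5, 451 and 260.2 CPM in WT and 289, 465 and 289 CPM in KO. The Kmt2 and Setd1 group, H3K4 methyltransferases together with Kmt2e (MLL5), summed to 412, 386 and 177 CPM in WT and 206, 443 and 192.5 CPM in KO. Most of that sum was Kmt2e, at 306, 285 and 125 CPM in WT and 138, 329.8 and 129 CPM in KO. The 12 other methyltransferases (Setd2 to Setd7, Kmt5a to Kmt5c, Dot1l, Ezh1 and Ezh2) lay closer together, at 97.6, 100.1 and 89.5 CPM in WT and 93.65, 114 and 90.0 CPM in KO. In footprints the BAF and PBAF subunits summed to between 579.9 and 635 CPM and the CHD remodelers to between 422 and 491 CPM over the 6 libraries.

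Gene by gene, the same order of libraries recurred. Of the 59 members tested in RNA, 30 had WT 3, KO 1 and KO 3 all below WT 1, WT 2 and KO 2, which is 50.8%, beside 18.3% of the 8379 genes tested. The opposite order held for 5 members (8.47%, beside 17.8% of genes tested): Arid1b, Kdm4b, Kdm5b, Kdm6a and Setd3. The other 24 were mixed, among them Kmt2d, Dot1l, Arid1a and Kdm1a. In log2 CPM, WT 3 lay below the mean of WT 1 and WT 2 by a median of 0.39 over the 59 members, while KO 2 lay above the mean of KO 1 and KO 3 by a median of 0.44. Over the 8311 genes with a coding sequence tested in RNA, the median of WT 3 minus the mean of WT 1 and WT 2 was 0.03, and that of KO 2 minus the mean of KO 1 and KO 3 was -0.01. Across the 59 members these 2 differences had a Spearman correlation of -0.83 (-0.55 across the 8311). It is given as a description, since genes of the same libraries are not independent. Both differences were also set up after the split of these libraries, so a negative correlation was to be had from that choice.

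Among the 59 tested, the 8 members whose RNA varied most among libraries of a genotype were Crebbp, Bptf, Setd5, Kmt2a, Kmt2e, Kdm5a, Kmt2c and Smarcc2. Crebbp encodes the acetyltransferase CBP, a coactivator that acetylates histone H3 at enhancers. Its RNA was 169.7, 131 and 45.2 CPM in WT and 64.3, 152 and 52.9 CPM in KO, a 3.76-fold range. Its footprints ran over a 1.28-fold range, at 78.0, 69.3 and 60.9 CPM in WT and 75.05, 73.2 and 75.2 CPM in KO. The RNA range of Crebbp thus had no counterpart in its footprints.

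Bptf, the largest subunit of the ISWI complex NURF, which binds methylated H3K4, had RNA levels of 131.5, 114 and 48.7 CPM in WT and 56.4, 127 and 46.4 CPM in KO. Its footprints were 38.3, 50.1 and 38.9 CPM in WT and 41.8, 32.4 and 40.45 CPM in KO. Kmt2e (MLL5), a SET-domain protein of the MLL family, was the most variable in absolute terms, with 306, 285 and 125 CPM of RNA in WT and 138, 329.8 and 129 CPM in KO. Its footprints were 28.4, 28.7 and 29.4 CPM in WT and 40.8, 35.6 and 23.7 CPM in KO. For each of these genes the RNA of WT 3 resembled KO 1 and KO 3, and the RNA of KO 2 resembled WT 1 and WT 2.

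Kmt2a (MLL1), an H3K4 methyltransferase, had RNA at 14.3, 11.2 and 4.40 CPM in WT and 7.09, 16.3 and 8.20 CPM in KO. Kmt2c (MLL3), which monomethylates H3K4 at enhancers, had RNA at 71.0, 68.05 and 27.9 CPM in WT and 35.2, 70.7 and 32.0 CPM in KO. Kdm5a, a demethylase of trimethylated H3K4, had RNA at 124, 112.5 and 49.97 CPM in WT and 53.0, 129.7 and 57.6 CPM in KO. The H3K4 methyltransferase Kmt2b also had WT 3, KO 1 and KO 3 lowest. Not all H3K4 enzymes shared this order: Kdm5b had the opposite one, and Kmt2d, Kdm1a, Kdm5c and Kdm5d were mixed. Setd5, a SET-domain protein, ran from 5.66 CPM (WT 3) to 19.6 CPM (KO 2) in RNA, and Smarcc2 (BAF170), a core BAF subunit, from 21.4 CPM (KO 3) to 54.2 CPM (KO 2). In footprints, the pooled within-genotype SD of log2 CPM of these 8 genes lay between 0.13 (Crebbp) and 0.38 (Setd5), against 0.66 (Smarcc2) to 0.91 (Crebbp) in RNA. Over the tested members the median SD was 0.32 in RNA and 0.24 in RPF, beside 0.29 and 0.30 over all genes tested.

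**Figure D2:**
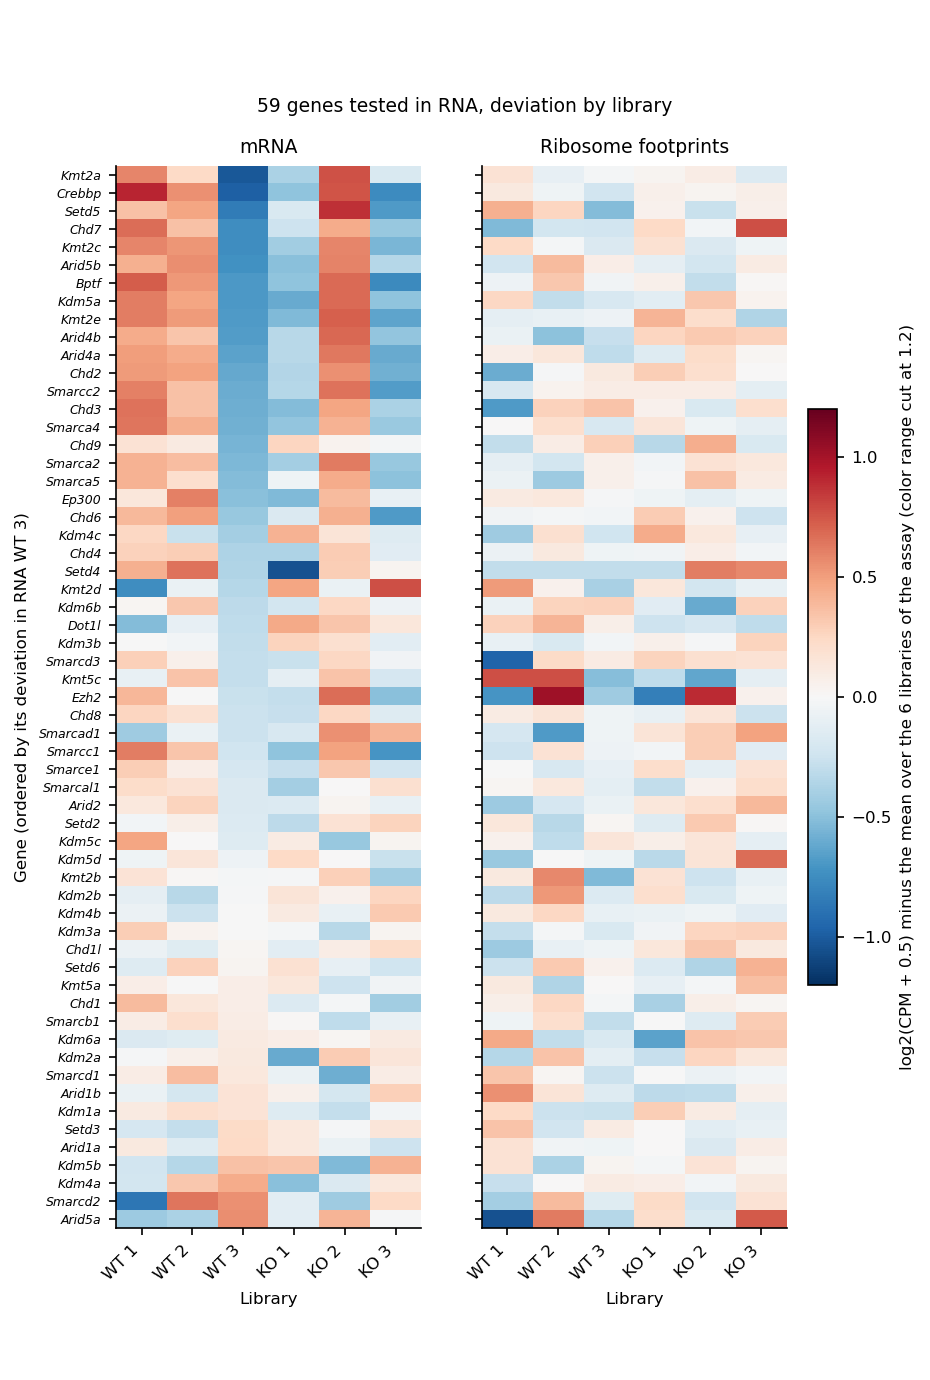
Deviation of each of the 59 RNA-tested chromatin genes from its own mean over the 6 libraries of an assay, in log2(CPM + 0.5), for mRNA (left) and footprints (right); genes are ordered by their deviation in RNA WT 3. In mRNA the upper rows are low in WT 3, KO 1 and KO 3 and high in WT 1, WT 2 and KO 2, as for 30 of 59 genes, and the footprint panel shows no such columns.

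The order was more frequent among members with A-rich stretches in their coding sequence. For each gene the largest number of A bases in any 20 consecutive coding bases was counted on the GENCODE M21 transcript. This measure, its classes and a boundary of 3000 coding bases were chosen after values had been seen, among several features looked at: lengths of transcript, coding sequence and both UTRs, exon and isoform numbers, base composition, the longest A run and T-rich windows. The median was 14 A bases for members tested in RNA and 12 for all genes tested. The members also had longer coding sequences (median 4323 against 1398 bases) and more exons (24 against 10).

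All 9 members with 16 or more A bases in a window had WT 3, KO 1 and KO 3 below the other RNA libraries. Their windows are shown because this class held the order in every member; the first window of a gene that reaches its maximum is given 5′ to 3′ on the transcript strand, with A in capitals.
Chd3: AgAAAAAAAAgAgAAAAAAA
Chd7: AAgAAAAAAAgAAAAAgAAA
Arid4a: AAAgAAAAAAcAAAAgAAgA
Arid5b: AAAAAcAAgAAAgAAAAAgA
Bptf: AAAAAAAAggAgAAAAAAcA
Chd6: AAAggAAAAAAgAcAAAAAA
Kmt2c: AAAAAgAAAAgAAcAAgAAA
Kmt2e: AAAAAAggAAAAAAAgAgAA
Smarca4: AAgAAgAAgAAAAAgAAAAA
Each lies within 1 coding exon of GRCm38. The Chd3 window is at chr11:69364014-69364033 in exon 3 and that of Bptf at chr11:107078584-107078603 in exon 8, both on the minus strand. The Arid5b window is at chr10:68101926-68101945 in exon 9, that of Chd6 at chr2:160983169-160983188 in exon 23 and that of Kmt2c at chr5:25299495-25299514 in exon 43, all on the minus strand. On the plus strand are those of Chd7 (chr4:8785592-8785611, exon 3), Arid4a (chr12:71071865-71071884, exon 18), Kmt2e (chr5:23485456-23485475, exon 14) and Smarca4 (chr9:21642569-21642588, exon 10). The non-A letters in these 9 windows are g and c only. They lie far from the 3′ end of the mRNA: the coding sequence alone continued for 1844 (Arid4a) to 7044 (Chd7) bases beyond the window.

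For comparison, 3 members were picked for high footprints per mRNA and a mixed order of RNA libraries, and their windows had fewer A bases. They are examples chosen by those values and do not test the relation. The Arid1a window is joined across an exon junction.
Kmt2d: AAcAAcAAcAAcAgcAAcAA
Kdm4a: AgtAcAAcAtAcAgAAgAAA
Arid1a: AggtcAAcAAgAAcAAAAAA
The Kmt2d window is at chr15:98846049-98846068 in exon 40 and that of Kdm4a at chr4:118175598-118175617 in exon 3, both on the minus strand. Other members went the other way. Chd9, Kdm3a, Setd2 and Smarcad1 had 15 A bases and a mixed order. Kmt5c with 10 A bases, and Kdm6b and Smarcd3 with 11, had WT 3, KO 1 and KO 3 lowest.

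By class, the order with WT 3, KO 1 and KO 3 lowest held for 3 of 5 members with 11 or fewer A bases, 2 of 8 with 12, 3 of 13 with 13, 9 of 16 with 14, 4 of 8 with 15 and 9 of 9 with 16 or more. Genes outside the set showed a gradient over the same classes, from 13.02% of 3533 genes with 11 or fewer A bases to 47.0% of 462 with 15 and 73.7% of 213 with 16 or more. The relation is therefore not particular to chromatin genes, and the class of 16 or more A bases held 9 of 59 members beside 222 of 8311 genes. Among members with 16 or more A bases the median deviation from the gene's mean, in log2(CPM + 0.5), was 0.61, 0.49 and -0.68 in RNA WT 1, 2 and 3 and -0.47, 0.58 and -0.55 in RNA KO 1, 2 and 3. In footprints of the same 9 genes it lay between -0.06 and 0.15. Over all genes with 16 or more A bases, the order held for 76.8% of those with at least 3000 coding bases and for 73.2% of shorter ones. T-rich windows, counted likewise, gave 17.8% of 6351 genes at 11 or fewer T bases, 21.3% of 1264 at 12, 17.4% of 506 at 13, 18.2% of 148 at 14, 20.0% of 35 at 15 and 28.6% of 7 at 16 or more. Whether A-rich stretches had any part in the RNA differences was not tested.

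**Figure D3:**
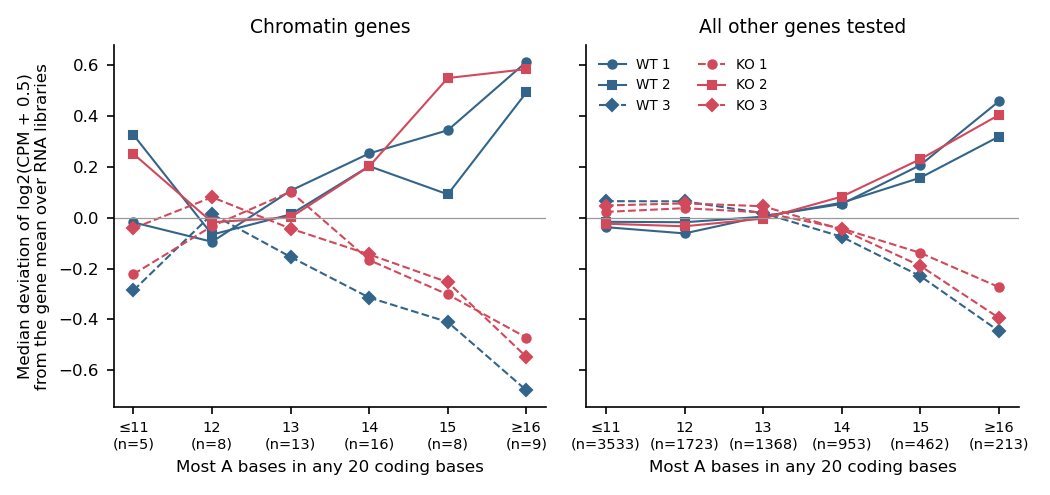
Median deviation of the RNA level from the gene's mean over 6 libraries (y axis, log2 units) by the most A bases in any 20 coding bases (x axis), with 1 line per RNA library, for the chromatin genes (left) and all other tested genes (right); n is the number of genes. At 16 or more A bases, WT 1, WT 2 and KO 2 lie between 0.49 and 0.61 in the chromatin genes and WT 3, KO 1 and KO 3 between -0.68 and -0.47, and in the other genes the lines draw together at 13 or fewer A bases.

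Footprints per mRNA differed widely between members. For each library number, log2 of footprint CPM + 0.5 over RNA CPM + 0.5 was taken relative to the median of the 8044 genes tested in both assays, so 0 is the median gene. In WT the 58 members tested in both ran from -4.54 (Kmt2e) to 3.03 (Kdm4a), with a median of -0.42. Of these, 13 lay below -2 (22.4% of members, 13.8% of all genes) and 5 lay above 2 (8.62% of members, 14.8% of all genes). Genes described in the next paragraphs by this ratio were partly chosen after their values had been seen. The region of the transcript that was counted is not given in the sources used here, and a count limited to coding sequence would change the mRNA level of genes with long UTRs.

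The lowest ratios belonged to Kmt2e (-4.54 ± 0.75), Chd3 (-4.36 ± 1.14), Chd7 (-4.05 ± 0.88), Ezh2 (-3.73 ± 1.07), Arid4a (-3.61 ± 0.42), Arid4b (-3.56 ± 0.65) and Kdm5a (-3.43 ± 0.66; SD, n = 3 WT libraries each). Chd3 is an ATPase of the NuRD complex, and Chd7 is a remodeler that acts at enhancers. Arid4a and Arid4b are subunits of the Sin3 histone deacetylase complex. The highest ratios belonged to Kdm4a (3.03 ± 0.15), Kmt2d (2.78 ± 0.70), Kdm4b (2.48 ± 0.29), Kdm2a (2.39 ± 0.33) and Arid1a (2.03 ± 0.21; SD, n = 3 each). Kdm4a and Kdm4b demethylate H3K9 and H3K36, Kdm2a demethylates H3K36, and Arid1a is the DNA-binding subunit of canonical BAF. Across the 58 members the ratio and the number of A bases in the richest window had a Spearman correlation of -0.49, beside -0.03 across 7981 genes, as a description of genes that share libraries. The median ratio was -2.71 for the 9 members with 16 or more A bases and -1.92 for the other genes of that class. Exceptions stood on each side: Arid5b had 16 A bases and a ratio of 0.79, while Smarcd3 with 11 and Smarce1 with 12 had ratios of -2.89 and -2.90.

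**Figure D4:**
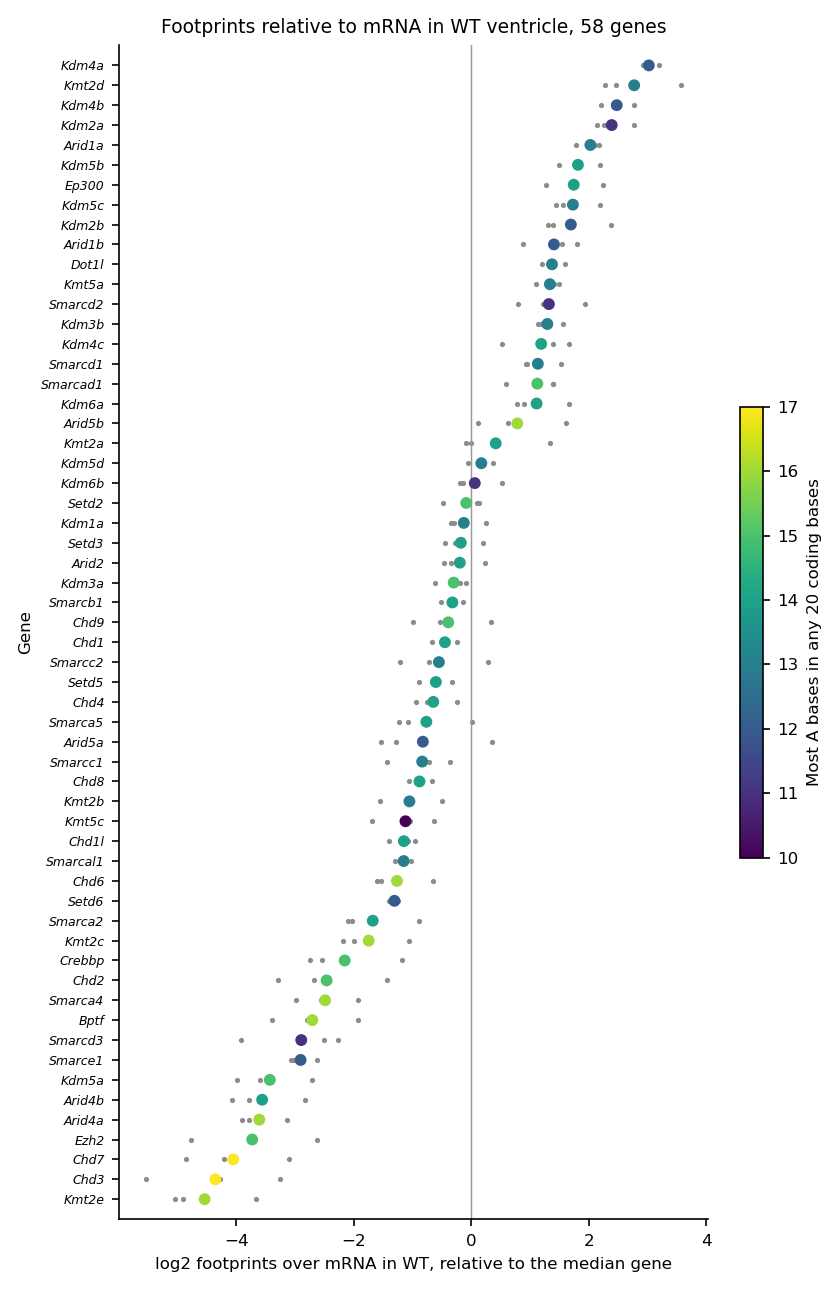
Log2 footprints over mRNA in WT ventricle relative to the median gene, for 58 chromatin genes; small gray points are the 3 WT library numbers, large points their mean, colored by the most A bases in any 20 coding bases. Means run from -4.54 for Kmt2e to 3.03 for Kdm4a, and the genes with 16 or 17 A bases lie at or below -1.26 except Arid5b at 0.79.

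Members that had footprints and hardly any RNA counts were outside the tested 59. These are counts of sequenced polyadenylated RNA, and why they were low beside the footprints was not tested. Setd7, a monomethyltransferase of H3K4 and of other proteins, had 1, 2 and 1 RNA counts in WT and 2, 2 and 2 in KO, against 267, 206 and 245 footprint counts in WT and 338, 354 and 251 in KO. Its RNA was thus under 3 counts in every library while footprints were plentiful. Setd1b, catalytic subunit of a COMPASS complex that trimethylates H3K4, had 3, 4 and 3 RNA counts in WT and 7, 7 and 8 in KO, and 124 to 291 footprint counts. Kdm1b (LSD2), a flavin-dependent H3K4 demethylase, had 2 to 9 RNA counts and 82 to 168 footprint counts. The reverse held for Setd4, with 8 to 38 RNA counts and footprint counts of 0, 0 and 0 in WT and 0, 3 and 2 in KO.

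Close paralogs fell on different sides of this range. Levels are given as WT means in CPM per kilobase of transcript, and reads from similar stretches of paralogs may have been split between them. Levels of mRNA are those read from the polyadenylated RNA libraries, with the same limit. Ezh1 and Ezh2 are alternative catalytic subunits of Polycomb repressive complex 2, which methylates H3K27. Ezh1 was at 0.264 in RNA and 7.34 in footprints, and Ezh2 at 5.21 in RNA and 1.24 in footprints. Ezh2 thus led by mRNA and Ezh1 by footprints. In raw counts, Ezh1 had 7 to 14 in every RNA library and 125 to 313 in every RPF library, and Ezh2 had 76 to 149 in RNA and 8 to 41 in RPF.

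Crebbp was at 10.7 in RNA and 6.41 in footprints, and Ep300, which encodes the paralogous acetyltransferase p300, at 0.698 and 7.32. Their footprints per kilobase were close and their mRNA was not. In the Kdm5 family, Kdm5a was highest by mRNA and not by footprints. It was at 8.73 in RNA and 2.31 in footprints, Kdm5b at 0.289 and 3.65, the X-linked Kdm5c at 0.493 and 5.68, and the Y-linked Kdm5d at 0.322 and 1.28. Kdm5d had 17 to 23 RNA counts in each of the 6 RNA libraries. Within Kmt2, RNA ran from 0.243 (Kmt2d) to 32.6 (Kmt2e), and footprints from 2.33 (Kmt2a) to 5.71 (Kmt2d). Per kilobase of coding sequence the lowest by footprints was Kmt2b, at 2.99. Kmt2d, which monomethylates H3K4 at enhancers, was lowest of the 5 by mRNA and highest by footprints.

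Among BAF subunits, Smarcd3, the muscle-enriched BAF60 form, was the highest member by RNA at 41.5 CPM per kilobase of transcript (above 91.2% of genes tested). It had 17.8 in footprints. Per kilobase of coding sequence Smarcd3 had 49.7 in RNA, below Smarce1 at 74.9. The Smarcd3 paralogs Smarcd1 and Smarcd2 were at 0.576 and 0.895 per kilobase of transcript in RNA and at 4.80 and 7.51 in footprints. Smarcd3 thus led these paralogs in both assays. The alternative ATPases Smarca4 and Smarca2 were at 26.7 and 13.2 in RNA and closer in footprints, at 13.8 and 12.2. Smarce1 (BAF57) had 31.6 in RNA and 12.8 in footprints. Smarcb1 (BAF47) and Smarcc2 had 22.2 and 17.5 in footprints. Of the ARID subunits, Arid1a had 11.8 in footprints, Arid1b 5.94 and the PBAF subunit Arid2 2.46, with RNA of 0.886, 0.680 and 0.881.

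Among remodelers of other families, Chd4, the ATPase of NuRD, was at 19.1 in RNA and 36.7 in footprints. Its RNA ran from 91.7 to 147 CPM over libraries and its footprints from 233.5 to 267 CPM, with overlap of the genotypes in each assay. Chd3 had 5.79 in RNA and 0.796 in footprints, and Chd5 was at 0 to 4 RNA counts. The ISWI ATPase Smarca5 had 8.06 in RNA and 14.3 in footprints, and its paralog Smarca1 0.0490 and 0.4997. Among methylation enzymes the highest by footprints was Kmt5a (39.15), the monomethyltransferase of H4K20, whose paralogs Kmt5b and Kmt5c had 1.73 and 2.11. Setd3, an actin histidine methyltransferase, had 24.1 in footprints and 8.77 in RNA. The demethylases Kdm1a (LSD1) and Kdm4a had 15.55 and 15.1 in footprints. Arid3c had no count in any library, and Arid3a, Chd5 and Kdm4d were also too low to be tested in either assay.

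Between genotypes, no member passed the test in mRNA. In edgeR's quasi-likelihood test, 0 of 59 members had an adjusted p below 0.05 (0.0119% of 8379 genes, the called gene being Rpl3l), and the smallest adjusted p of a member was 0.999. At an unadjusted p below 0.05, edgeR gave 2 members, Kmt2d and Dot1l, both higher in KO (2.54% of genes in either direction, 1.66% higher). DESeq2 gave 1, and no share of all genes was counted for it. The median log2 fold change of the members was -0.12, beside -0.01 for all genes, and 18 of 59 were above 0, beside 49.1% of genes. By role, 11 of 12 BAF and PBAF subunits, 7 of 9 CHD remodelers and 8 of 14 demethylases were below 0, with medians of -0.19, -0.24 and -0.03. Without WT 3 the members' median was -0.28, and 5 members had an edgeR unadjusted p below 0.05. Without KO 2 it was -0.24 with 9, and without KO 1 -0.0032 with 2. Without WT 1 or KO 3 it was -0.02 or -0.03 with 1 each. The share of all genes at that p was not counted in these fits, so the counts have no background beside them. The set's RNA median thus changed in size with single libraries and stayed below 0 in the 6 fits that left out a library. Its sign was the opposite with the split factor, which was drawn from these same data.

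The members with the smallest p in RNA, Kmt2d and Dot1l, had few RNA counts and did not follow the split of the libraries. Kmt2d had 3.58, 5.97 and 4.92 CPM in WT and 9.01, 5.99 and 11.2 CPM in KO, so every KO library lay above every WT library. Its log2 fold change was 0.86 (SE 0.28, edgeR adjusted p = 0.999). Dot1l, the H3K79 methyltransferase, had 2.01, 2.86 and 2.41 CPM in WT and 4.43, 4.04 and 3.44 CPM in KO, with a log2 fold change of 0.70 (SE 0.27, edgeR adjusted p = 0.999). Kdm2b, an H3K36 demethylase that recruits a Polycomb complex to CpG islands, also had no overlap, at 1.15, 0.909 and 1.26 CPM in WT and 1.48, 1.35 and 1.62 CPM in KO. These 3 members made up 5.08% of the 59, beside 4.14% of genes with every KO library higher. Smarcad1 and Kdm3b, with log2 fold changes of 0.66 (SE 0.34) and 0.23 (SE 0.21), overlapped between genotypes.

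Every KO library lay below every WT library for 3 members (5.08%, beside 3.19% of genes). Chd1, a remodeler of transcribed genes, had RNA at 11.5, 9.61 and 9.22 CPM in WT and 7.68, 8.54 and 6.38 CPM in KO (log2 fold change -0.43, SE 0.20). Kdm1a had 15.5, 16.6 and 16.1 CPM in WT and 12.85, 11.7 and 13.97 CPM in KO (-0.32, SE 0.16). Smarcb1 had 14.2, 15.3 and 14.1 CPM in WT and 13.4, 10.6 and 12.45 CPM in KO (-0.26, SE 0.17). Smarcc1 (-0.43, SE 0.33) and Smarcd1 (-0.44, SE 0.36) overlapped between genotypes. Each of these 5 had an edgeR adjusted p of 0.999.

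In footprints no member passed either: 0 of 67 had an edgeR adjusted p below 0.05 (0.00897% of 11153 genes), the smallest being 0.834. At an unadjusted p below 0.05 there were 5 members in edgeR (5.96% of genes) and 3 in DESeq2, for which no share of all genes was counted. Of the 5, 4 were higher in KO (2.73% of genes) and 1 was lower (3.23% of genes). The members' median log2 fold change was 0.06, beside 0.0014 for all genes, and 39 of 67 were above 0, beside 50.2%. By role, 13 of 16 demethylases and 8 of 12 BAF and PBAF subunits were above 0, with medians of 0.10 and 0.09, and 5 of 7 genes of the Kmt2 and Setd1 group were below 0, with a median of -0.03. Without WT 3 the edgeR count at an unadjusted p below 0.05 was 8, without KO 2 it was 2, and without WT 1, WT 2 or KO 3 it was 3. The share of all genes was not counted in these fits either.

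Every KO footprint library was above every WT library for 6 members (8.96%, beside 6.27% of genes): Arid4b, Chd7, Smarcad1, Arid2, Chd1l and Kdm3b. Arid4b had 30.9, 22.9 and 26.9 CPM in WT and 38.9, 40.6 and 39.4 CPM in KO, a log2 fold change of 0.56 (SE 0.19, edgeR adjusted p = 0.834). Chd7 had 10.7, 13.4 and 13.3 CPM in WT and 18.6, 15.4 and 27.25 CPM in KO (0.70, SE 0.28). Smarcad1, an SNF2 ATPase, had 15.2, 10.8 and 16.9 CPM in WT and 19.7, 21.7 and 24.7 CPM in KO (0.61, SE 0.25). Arid2 had 18.1, 21.35 and 23.3 CPM in WT and 27.1, 28.4 and 32.5 CPM in KO (0.49, SE 0.21). The H3K9 and H3K27 demethylase Kdm7a, at 0.45 (SE 0.23), overlapped between genotypes.

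Every KO footprint library was below every WT library for 3 members (4.48%, beside 5.77% of genes): Dot1l, Setd1a and Ep300. Dot1l had 23.0, 25.3 and 19.9 CPM in WT and 15.9, 16.4 and 15.3 CPM in KO, a log2 fold change of -0.51 (SE 0.23, edgeR adjusted p = 0.834). Setd1a, like Setd1b a catalytic subunit of COMPASS, had 15.2, 10.3 and 7.61 CPM in WT and 7.41, 6.89 and 7.34 CPM in KO (-0.61, SE 0.36). WT 3 of Setd1a thus lay just above KO 1, and its fold change ran from -0.82 to -0.30 when single libraries were left out. Arid1b (-0.39, SE 0.20), Kmt5c (-0.88, SE 0.55) and Kdm4b (-0.19, SE 0.17) overlapped between genotypes.

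**Figure D5:**
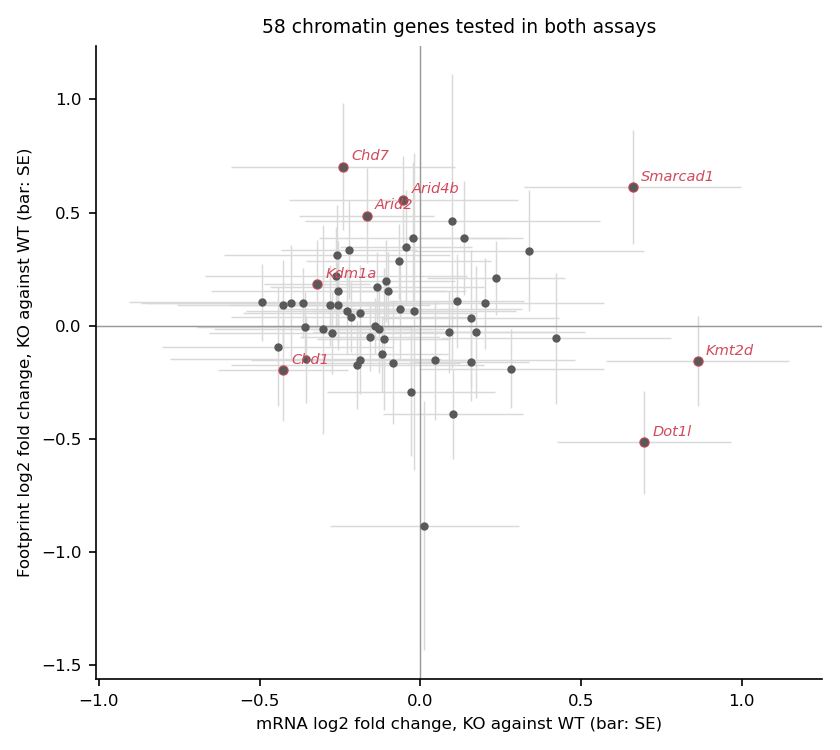
Log2 fold change, KO against WT, in mRNA (x axis) and footprints (y axis) for 58 chromatin genes tested in both assays; gray bars are standard errors, and labeled genes had a small p in an assay. No gene passed the adjusted threshold in either assay; Dot1l lies at 0.70 in mRNA and -0.51 in footprints, Kmt2d at 0.86 and -0.16, and Chd7 at -0.24 and 0.70.

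Dot1l had the smallest p of any member for the difference between its mRNA and footprint fold changes, and it did not pass the adjusted threshold. In 1 model of the 12 libraries, the genotype difference in footprints per mRNA (translational efficiency, TE) was the assay by genotype term. By edgeR, 0 of 58 members passed (0% of 8044 genes), with a smallest adjusted p of 0.9997. At an edgeR unadjusted p below 0.05 there were 3 members (3.73% of genes), 1 higher (1.77%) and 2 lower (1.96%). They were Dot1l at -1.19 (SE 0.33), Kmt2d at -0.999 (SE 0.37) and Arid2 at 0.68 (SE 0.29). DESeq2 also gave 3, and no share of all genes was counted for it. Dot1l kept a TE log2 fold change between -1.26 and -1.06 when any replicate number was left out, and Kmt2d one between -1.203 and -0.57. Further members below 0 by the same ranking were Kmt5c (-0.87, SE 0.56), Arid1b (-0.47, SE 0.31) and Kdm4b (-0.45, SE 0.30). Those above 0 were Chd7 (0.96, SE 0.47), Kdm3a (0.58, SE 0.29), Kdm1a (0.53, SE 0.26) and Kdm4a (0.62, SE 0.39).

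The members' median TE log2 fold change was 0.26, beside 0.01 for all genes, and 42 of 58 members were above 0, beside 51.7%. It was 11 of 12 for BAF and PBAF subunits and 8 of 9 for CHD remodelers. With the split of RNA libraries as a factor, itself drawn from these data, the median was 0.01. Without that factor it ran from 0.10 (without KO 3) to 0.35 (without KO 2) when a replicate number was left out. The edgeR count at an unadjusted p below 0.05 was 7 without WT 3 and 10 without KO 2, and the share of all genes was not counted there.

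Other chromatin genes, 188 in 9 lists, were counted beside the members. They were partners and further enzymes: other methyltransferases and demethylases, Polycomb proteins, COMPASS cofactors, remaining BAF and PBAF subunits, NuRD and ISWI partners, the INO80 and SWR1 family, acetyltransferases and deacetylases, and acetyl readers with DNA methylation enzymes. In RNA, 0 of the 136 tested passed edgeR's adjusted threshold, and 2 had an unadjusted p below 0.05, both higher in KO: Dpf3, a BAF subunit that reads histone marks in heart and muscle, and Jarid2, a Polycomb cofactor. In RPF 0 of 171 passed, with 4 higher and 5 lower at an unadjusted p below 0.05, and in TE 0 of 134 passed, with 1 higher (Prmt9) and 1 lower (Ash2l). Of all genes tested, 2.54% in RNA, 5.96% in RPF and 3.73% for TE were below that p in edgeR, so these counts do not set the lists apart. The median log2 fold change of the lists together was -0.10 in RNA, -0.0005 in RPF and 0.08 for TE. Over all genes it was -0.01, 0.0014 and 0.01. The RNA median was most negative for acetyl readers and DNA methylation enzymes (-0.24) and highest for other histone demethylases (0.15).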

How the data were processed

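The authors deposited raw counts (whole numbers, 1 row per transcript name) of ribosome-protected fragments and of polyadenylated RNA. The tools cutadapt 1.18 and Bowtie2 2.4.2 are named in the submitters' processing notes, with no role or settings. Build, counted region, strand use and treatment of reads matching more than 1 place are not given in the sources used here. Of 21669 names, 21425 matched GENCODE M21 (GRCm38), which may not be the authors' annotation; coordinates, lengths and sequences come from it. Groups were taken from the labels, and p-values measure the spread between these libraries.

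All genes were fitted with edgeR 4.0.16 in R 4.3.3 (filterByExpr with a minimum count of 10, TMM, quasi-likelihood F test), for RNA and RPF over 6 libraries each and for TE as the assay by genotype interaction over 12. P-values were adjusted by Benjamini-Hochberg over all genes tested, threshold 0.05. The filter passed 59 members in RNA, 67 in RPF and 58 in both; 4 passed in neither. Log2 levels used CPM + 0.5. The fits were tested on simulated data. DESeq2 1.42.0, other scalings and filters, a length trend, a replicate block and leaving out each replicate were tried as alternatives. Fold changes were named for up to 5 members higher and 5 lower per comparison with the smallest p. Levels were named for the 10 highest members per kilobase in each assay, the 8 most variable in RNA, and paralog groups. The members, lists and rules were chosen with earlier results of these data known. With raw library totals, before TMM scaling, 3 counts correspond to between 0.355 and 0.784 CPM, for counting error only.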

Additional observations from a re-analysis of the deposited data

How the results depend on the processing

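No member passed the adjusted threshold under any alternative, and the 450 values of named members under alternatives all kept their direction and side, the lowest adjusted p being 0.395. Those members were named for their direction and small p in these same libraries, so a kept direction is no independent check. Their adjusted p in the main fits was already 0.834 or more. Over all genes, the 1 gene called in RNA became 4 without a filter and 6 with a factor for the split of the RNA libraries. The 1 called in RPF became 5 with DESeq2 and 60 without a filter. TE went from 0 calls to 1 with DESeq2 (Rpl3l, -1.65, adjusted p = 0.030). The median log2 fold change of members in RNA was 0.0904 with the split factor, and ran from -0.28 to -0.0032 over the fits that left out a replicate. Those fits called 1 to 2 genes in RPF (2 without WT 2 and 2 without WT 3). The causes were not tested.

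Not every pair of same-numbered libraries reached the correlation of 0.1 asked of a pairing. Deviations of same-numbered WT and KO libraries correlated at -0.20, 0.36 and 0.41 in RNA and at 0.06, 0.03 and 0.0041 in RPF. Those of RNA and RPF libraries correlated at 0.08, 0.15 and 0.08 in WT and at 0.11, 0.11 and 0.12 in KO. Summed adipocyte markers were highest in WT 2 and KO 2 in both assays, in RPF at 330 and 243 CPM against 50.8 to 121. Erythroid markers summed to 353, 925 and 1502 CPM in RPF WT and 1572, 1071 and 661 CPM in RPF KO, a library order near that in RNA. Whether same-numbered RNA and RPF libraries shared a heart was not tested, and the main TE fit had no term for it. With the replicate block, RPF calls went from 1 to 4 (6 with a length trend removed as well), and no member was called. RNA members at an edgeR unadjusted p below 0.05 were 6 with the split factor, 3 with the block and 1 with a mean of at least 50 counts. Shares of all genes at that p were counted for the main edgeR fits only. Ranked per kilobase of coding sequence, 9 of the 10 highest members in RNA and 8 in RPF were shared with the ranking by transcript length. Setd7, Setd1b, Kdm1b and Ezh1 had too few RNA counts for the filter and entered the RNA fit without one, which tested 70 members and called none.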

Other observations

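Footprints per mRNA also went with the length of the 3′ UTR. Across 7981 genes tested in both assays the Spearman correlation of the WT ratio with 3′ UTR length was 0.37, and across the 58 chromatin members it was 0.21. With coding length it was 0.20 across all genes and -0.06 across members. These are descriptions of genes that share libraries, and whether counts were taken over UTRs is not given in the sources used here.

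Polycomb genes outside the member set had a median log2 fold change of 0.05 in RNA, with 13 of 20 tested above 0 in KO, and of 0.0063 in RPF, with 16 of 28 above 0. Of NuRD and ISWI partners, 3 of 17 were above 0 in RNA (median -0.11) and 7 of 17 in RPF (median -0.08). Of acetyltransferases and deacetylases, 5 of 23 were above 0 in RNA (median -0.14) and 14 of 32 in RPF (median -0.0043). Of all genes tested, 49.1% were above 0 in RNA and 50.2% in RPF. No gene of these 3 lists passed edgeR's adjusted threshold in either assay. At an edgeR unadjusted p below 0.05 were the Polycomb genes Jarid2 in RNA and Eed and Phc3 in RPF, and the deacetylase Sirt2 in RPF. Of all genes tested, 2.54% in RNA and 5.96% in RPF were below that p.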
